A study of Sus scrofa with 8 samples.

Results

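The genes of the swine leukocyte antigen (SLA) region and of antigen presentation were examined in RNA-seq data of pig heart. The members were the rows of the deposited expression table whose gene name begins with SLA- or is one of 25 listed antigen presentation genes. By its name in the table, 34 rows were selected, and 8 more were found by the symbol of their Ensembl identifier, because the table gives them another name (PSMB9 as LMP2, for example). The members were thus 42 of 18975 rows and 40 distinct genes, since B2M and PSMB8 have 2 rows each. No row was matched for TAP1, PSMB10, NLRC5, CD74 and CD1A, which were not analysed here. Another 4 rows have an SLA name with the prefix TMP and are given apart.

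Hearts were taken from male Tibetan and Yorkshire pigs at 6 months of age, raised in the highland (TH and YH) or in the lowland (TL and YL). There were 2 libraries per group, numbered 1 and 2, and each library held RNA pooled from 4 pigs. The spread between libraries is therefore a spread between pools, and in heart RNA fewer cells of a type and less RNA per cell cannot be told apart. Values are FPKM, in which the authors scaled the fragments of a gene by transcript length and by the mapped fragments of the library, after alignment to the pig genome Sscrofa10.2. The study's own lists of changed genes, which hold several SLA genes, were made from the same libraries and are not independent evidence. The study also assayed SLA-5 by quantitative PCR, and those values were not used here.

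MHC molecules, named SLA in pigs, display peptides at the cell surface to T cells. Class I molecules pair a heavy chain with beta-2-microglobulin and carry peptides that the proteasome cuts from proteins inside the cell, and almost all nucleated cells make them. Class II molecules pair an alpha with a beta chain, carry peptides of proteins taken up from outside, and are made mainly by macrophages, dendritic cells and B cells, and in some tissues by endothelial cells. In the heart, both classes are known for their part in inflammation and in the rejection of grafts.

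Between 15686825 and 26722609 reads per library fell on genes. Mitochondrially encoded genes held 57.7% to 87.6% of the summed FPKM, with the highest share in TH1. YL2 stood apart, because the summed FPKM of 10 kidney genes reached 4452 in YL2 and at most 17.0 in the other libraries. Cardiomyocyte genes were abundant in all 8 libraries, with a sum over 8 markers of 13406 FPKM in YL2 and of 20051 to 35968 in the others. Where a named log2 fold change moved by over 1.5 times without TH1 or YL2, its value without that library is given too.

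Groups were compared with limma on log2(FPKM + 1), in 1 fit of the 8 libraries. The filter kept the 11913 genes that reached 1 FPKM in 2 or more libraries, and these included 34 of the 42 rows. Of these 34, 32 reached 1 FPKM in at least 1 library of each group, so that SLA-DQB2 and CD1D alone owed their place to the groups where they were higher. Both were set aside, and counts over members below refer to these 32 rows. The shares of all genes beside them refer, in the same way, to the 10476 genes that reached 1 FPKM in at least 1 library of each group, unless 11913 genes are named. A gene was called at a Benjamini-Hochberg adjusted p under 0.01 with a log2 fold change over 1 in size. An exact permutation test of 2 libraries against 2 cannot give a two-sided p under 0.333, so the p-values depend on limma's pooling of the spread over genes.

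No member was called in any of the 7 comparisons by limma. Over all 11913 genes tested, the calls were 0.0336% in TH vs. YH, 0.00839% in TL vs. YL, 0.0504% in TH vs. TL, 0.0% in YH vs. YL, 0.0504% between the breeds over both altitudes, 0.0336% between the altitudes over both breeds and 0.0336% for the interaction. At an unadjusted p under 0.05, 17 of the 32 rows differed in TH vs. YH, where 15.2% of all genes did, and 9 in TH vs. TL, where 10.9% of all genes did. Likewise 12 rows differed for the interaction against 10% of all genes, 8 between the breeds against 11.9%, 5 in YH vs. YL against 5.16% and 6 in TL vs. YL against 7.69%. Between the altitudes, 1 row did, where the share of all genes was 6.54%. The count between the breeds moved with the settings. Without TH1 it fell to a share below that of all genes, and with median-ratio scaling it was 14, beside 11.6% of all genes.

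SLA-2 and SLA-5 had the highest mean levels of the 6 class I heavy chain rows, and in FPKM as deposited they ran in opposite directions between the breeds. SLA-5 was at 71.3 and 60.9 FPKM in the TH libraries, 133 and 125 in those of TL, 255 and 299 for YH, and 351 and 304 for YL. All 4 Yorkshire libraries lay above all 4 Tibetan libraries, and within the Tibetan pigs TH lay below TL. The mean of YH was 4.19 times that of TH, with a log2 fold change of -2.05 ± 0.23 (SE) from YH to TH and an adjusted p of 0.0374 by limma. In the lowland, the mean of YL was 2.54 times that of TL (log2 fold change -1.33 ± 0.23, limma adjusted p = 0.187). Over both altitudes the log2 fold change was -1.69 ± 0.16 with an adjusted p of 0.019, which ranged from 0.00481 to 0.138 over the alternative settings. It was over 0.05 without any 1 of TH1, TH2, TL1, TL2, YH1 and YH2, from 0.0625 to 0.138, and under 0.05 without YL1 or YL2. The adjusted p in TH vs. YH was likewise over 0.05 without TH1, TL1, TL2, YH1 or YH2 (0.138 to 0.251), with the FPKM sum without mitochondrial genes as scale (0.149) and on scaled reads (0.104). SLA-5 was the only member past a looser threshold (adjusted p under 0.05, at least 2-fold), in TH vs. YH and between the breeds. Among the 11913 genes, 0.0923% were lower in TH by this rule and 0.126% lower in the Tibetan pigs.

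SLA-2 was at 251 and 261 FPKM in the TH libraries, 225 and 296 in those of TL, 159 and 141 for YH, and 196 and 177 for YL. In these values all 4 Tibetan libraries lay above all 4 Yorkshire libraries, with a log2 fold change of 0.62 ± 0.17 between the breeds (limma adjusted p = 0.208). This separation of SLA-2 depended on the scale. With the FPKM sum without mitochondrial genes as scale, the Tibetan libraries were at 173 to 323 and the Yorkshire libraries at 118 to 300.3, and they overlapped, whereas those of SLA-5 stayed apart at 48.9 to 139.9 and 212 to 515. The RPM of SLA-2, its reads scaled by all reads on genes, was 304 and 571 in the TH libraries, 494 and 609 in those of TL, 341 and 399 for YH, and 330.3 and 451 for YL, so that the breeds overlapped and TH1 was the lowest of the 8 libraries. The RPM of SLA-5 was 94.4 and 150.4 in the TH libraries, 187 and 289 in those of TL, 602 and 943 for YH, and 646 and 488 for YL, with no overlap. SLA-2 lies at chr7:24748105-24751642 and SLA-5 at chr7:24683605-24687412 on Sscrofa10.2, 60.7 kb apart. The positions are those of the deposited table, and whether reads fell on exons or UTRs was not analysed here.

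Within a library the ratio of SLA-5 to SLA-2 does not depend on how the libraries are scaled. It was 0.283 and 0.233 in the TH libraries, 0.592 and 0.423 in those of TL, 1.60 and 2.12 for YH, and 1.79 and 1.71 for YL. The SLA-2 row was thus the higher of the pair in each Tibetan library and the SLA-5 row in each Yorkshire library. TMP-SLA-2, given apart below, is not in this ratio and lay above SLA-5 in every library. Its group means rose in the order TH, YL, TL and YH, unlike those of SLA-2, so the exchange between the breeds holds for the 2 rows compared only. This ratio was chosen after the values were seen. It is given as a description with no test, because the separation of both genes in FPKM fixes that of their ratio. The ratio was also taken from reads rather than FPKM, because FPKM from Cufflinks need not follow the reads on a gene. In reads it was 0.311 and 0.264 in the TH libraries, 0.380 and 0.475 in those of TL, 1.77 and 2.36 for YH, and 1.96 and 1.08 for YL, again with no overlap between the breeds, although YL2 was lower than by FPKM. SLA class I genes are close copies of each other, and how the authors' counting split reads among them is not known, so the level of a single row is uncertain. Reads of both breeds were aligned to the same reference genome. Whether the SLA alleles of both breeds, of class I or class II, aligned to it equally well was not tested.

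**Figure D1:**
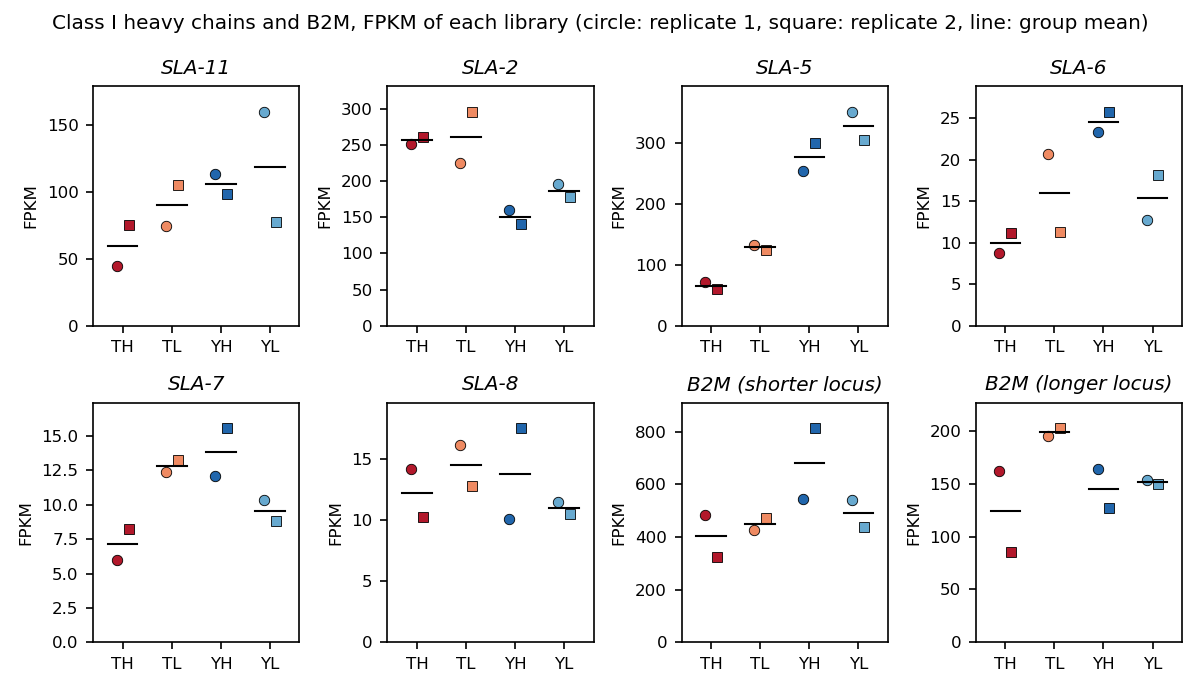
FPKM of the 6 class I heavy chain rows and the 2 B2M rows in each library, by group, with circles for replicate 1, squares for replicate 2 and a line at the group mean. SLA-5 lies at 60.9 to 133 FPKM in the Tibetan libraries and at 255 to 351 in the Yorkshire libraries, and SLA-2 runs the other way in these values. The TMP rows are not drawn.

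The remaining heavy chains were lower. SLA-11 was at 44.9 and 75.1 FPKM in the TH libraries, 74.8 and 105 in those of TL, 113 and 98.1 for YH, and 159.9 and 77.5 for YL. Its lowest library was in TH and its highest in YL, but its YL libraries alone spanned 77.5 to 159.9 (log2 fold change between the breeds -0.59 ± 0.30, limma adjusted p = 0.442). SLA-6, SLA-7 and SLA-8 are the nonclassical class I genes of the pig. SLA-6 was at 8.83 and 11.2 FPKM in the TH libraries, 20.7 and 11.3 in those of TL, 23.3 and 25.8 for YH, and 12.7 and 18.1 for YL. SLA-7 was at 6.01 and 8.26 FPKM in the TH libraries, 12.4 and 13.3 in those of TL, 12.1 and 15.6 for YH, and 10.4 and 8.80 for YL. In both genes TH was below YH without overlap, with a log2 fold change of -1.22 ± 0.33 for SLA-6 and -0.87 ± 0.23 for SLA-7, with limma adjusted p of 0.176 and 0.177. SLA-8 was at 14.2 and 10.3 FPKM in the TH libraries, 16.2 and 12.8 in those of TL, 10.1 and 17.5 for YH, and 11.4 and 10.5 for YL, and its groups overlapped in TH vs. YH.

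Summed over the 6 rows, the class I heavy chains gave 397 and 427 FPKM in the TH libraries, 482 and 563 in those of TL, 573 and 597 for YH, and 741 and 596 for YL. Each Tibetan library summed to less than each Yorkshire library, and TH to less than TL, but the separation of the breeds depended on the scale. With the FPKM sum without mitochondrial genes as scale they overlapped, at 272 to 595 and 447 to 1009.8. Scaled by median ratios they stayed apart, at 336 to 564 and 591 to 719, as they did in RPM, at 472 to 1132 and 1180 to 1652. With the TMP rows added the sums were 993 and 910.3 FPKM in the TH libraries, 1432 and 1363 in those of TL, 1369 and 1690.3 for YH, and 1593 and 1242 for YL, and the breeds then overlapped, while TH stayed below every other library. TMP-SLA-2 was at 567 and 429 FPKM in the TH libraries, 836 and 709 in those of TL, 707 and 1000.0 for YH, and 804 and 571 for YL, above each named heavy chain row in every library. TMP-SLA-3 was at 27.4 and 52.1 FPKM in the TH libraries, 114 and 89.0 in those of TL, 85.7 and 87.1 for YH, and 45.7 and 74.1 for YL, with TH1 the lowest library and TH2 above TH1 and YL1 alone. The other 2 TMP rows reached at most 5.88 FPKM. The median log2 fold change of the 6 heavy chains was -0.86 in TH vs. YH and 0.19 in TL vs. YL, beside -0.03 and 0.02 for all 11913 genes tested. Without TH1 the first of these was -0.58.

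B2M encodes the light chain that every class I molecule shares. Its row at chr1:141532505-141538781 was at 483 and 324 FPKM in the TH libraries, 428 and 473 in those of TL, 546 and 813 for YH, and 543 and 437 for YL. Its other row, at chr1:141436332-141517774, was at 162 and 85.7 FPKM in the TH libraries, 195 and 202 in those of TL, 164 and 127 for YH, and 153 and 149 for YL. In both rows the lowest library was TH2, and no comparison of either row passed the test, the log2 fold change of the first in TH vs. YH being -0.75 ± 0.33 (limma adjusted p = 0.331). The loci of both rows do not overlap.

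Class I peptides are cut by the immunoproteasome, carried into the endoplasmic reticulum by TAP, trimmed by ERAP1 and ERAP2 and loaded with the help of tapasin (TAPBP), calreticulin (CALR) and PDIA3. PSMB9 and PSMB8 are catalytic subunits of the immunoproteasome. Low levels were found for PSMB9 at 0.254 to 1.02 FPKM, TAP2 at 0.0751 to 0.538 and a PSMB8 row at 0 to 0.422. The other PSMB8 row was at 5.48 to 12.8 FPKM. The proteasome activator subunit PSME1 was at 74.2 to 118 FPKM and its partner PSME2 at 52.7 and 25.9 FPKM in the TH libraries, 31.1 and 32.3 in those of TL, 30.1 and 33.4 for YH, and 39.6 and 25.6 for YL. The highest PSME2 library was TH1, and the groups overlapped in each of the 4 pairwise comparisons.

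Of the loading factors, CALR and PDIA3 had higher values in TH, and TAPBP and the trimming enzymes did not. CALR was at 265 and 184 FPKM in the TH libraries, 128 and 118 in those of TL, 89.6 and 135 for YH, and 133 and 191 for YL. TH lay above YH and TL without overlap, with means 1.99 and 1.82 times theirs (limma adjusted p = 0.232 and 0.404). CALR also helps to fold many other proteins. PDIA3, a disulfide isomerase, was at 70.0 to 105 FPKM, and TH again lay above YH and TL. TAPBP was at 4.94 and 15.0 FPKM in the TH libraries, 12.6 and 13.6 in those of TL, 16.8 and 16.0 for YH, and 12.9 and 11.1 for YL, and its lowest library was TH1. The log2 fold change of TAPBP in TH vs. YH was -0.84 ± 0.43, and -0.12 ± 0.20 without TH1 (limma adjusted p = 0.387 and 0.941). ERAP1 was at 2.03 and 4.09 FPKM in the TH libraries, 5.93 and 4.61 in those of TL, 7.59 and 7.20 for YH, and 5.06 and 3.70 for YL. TH lay below YH with a log2 fold change of -1.10 ± 0.30 (limma adjusted p = 0.177), and TH1 was the lowest library. Without TH1 it was -0.72 ± 0.26 (limma adjusted p = 0.49). ERAP2 was at 3.46 to 7.20 FPKM with TH below YH, -0.57 ± 0.30 (limma adjusted p = 0.396).

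The group mean of YH was the highest of the 4 groups for all 7 class II chains with at least 1 FPKM on average, and that of TH was the lowest for 6 of them. For SLA-DMA, YL was lowest. The DR and DQ chains, which form the molecules at the cell surface, were the most abundant. SLA-DRA1, the DR alpha chain, was at 54.4 and 97.0 FPKM in the TH libraries, 207 and 213 in those of TL, 217 and 279 for YH, and 197 and 128 for YL. SLA-DRB*K07G, its beta chain, was at 11.3 and 16.7 FPKM in the TH libraries, 55.8 and 44.9 in those of TL, 62.8 and 48.7 for YH, and 17.5 and 29.3 for YL. TH lay below YH and below TL for both genes, and YH lay above YL. The mean of YH was 3.28 times that of TH for SLA-DRA1 (log2 fold change from YH to TH -1.75 ± 0.36, limma adjusted p = 0.115) and 3.98 times for SLA-DRB*K07G (-1.93 ± 0.33, adjusted p = 0.0805). Without TH1 these log2 fold changes were -1.33 ± 0.34 and -1.67 ± 0.37 (limma adjusted p = 0.364 and 0.314).

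SLA-DQA1, the DQ alpha chain, was at 45.3 and 53.2 FPKM in the TH libraries, 97.8 and 108 in those of TL, 133 and 153 for YH, and 75.9 and 58.4 for YL. SLA-DQB*G07, the DQ beta chain, was at 24.9 and 34.8 FPKM in the TH libraries, 62.4 and 67.9 in those of TL, 75.6 and 92.9 for YH, and 43.5 and 36.4 for YL. In both genes the 4 groups were apart, in the order TH, YL, TL and YH. The log2 fold change in TH vs. YH was -1.52 ± 0.24 for SLA-DQA1 and -1.48 ± 0.25 for SLA-DQB*G07, with limma adjusted p of 0.0691 and 0.0805. In the lowland the difference had the opposite sign, 0.62 ± 0.24 and 0.69 ± 0.25 in TL vs. YL (adjusted p = 0.5 and 0.478).

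SLA-DMA and SLA-DMB form the DM molecule, which exchanges peptides on class II inside the cell. SLA-DMA was at 17.3 and 22.2 FPKM in the TH libraries, 27.5 and 29.8 in those of TL, 37.2 and 34.7 for YH, and 18.3 and 14.5 for YL. SLA-DMB was at 9.64 and 13.6 FPKM in the TH libraries, 19.0 and 21.5 in those of TL, 27.1 and 28.3 for YH, and 22.4 and 11.6 for YL. Both were highest in YH, with the lowest group mean in YL for SLA-DMA and in TH for SLA-DMB. For SLA-DMA the mean of YH was 2.19 times that of YL (1.09 ± 0.22 on the log2 scale, limma adjusted p = 0.582). SLA-DOA, a chain of the DO molecule that restrains DM, was at 0.779 and 1.06 FPKM in the TH libraries, 2.84 and 3.42 in those of TL, 4.44 and 4.30 for YH, and 1.44 and 3.36 for YL, and SLA-DOB, its partner, stayed at 0.117 to 0.457 FPKM and was not tested. SLA-DOA in TH was -1.49 ± 0.30 from YH (limma adjusted p = 0.11), a difference that the pseudocount of 1 makes smaller at this level.

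**Figure D2:**
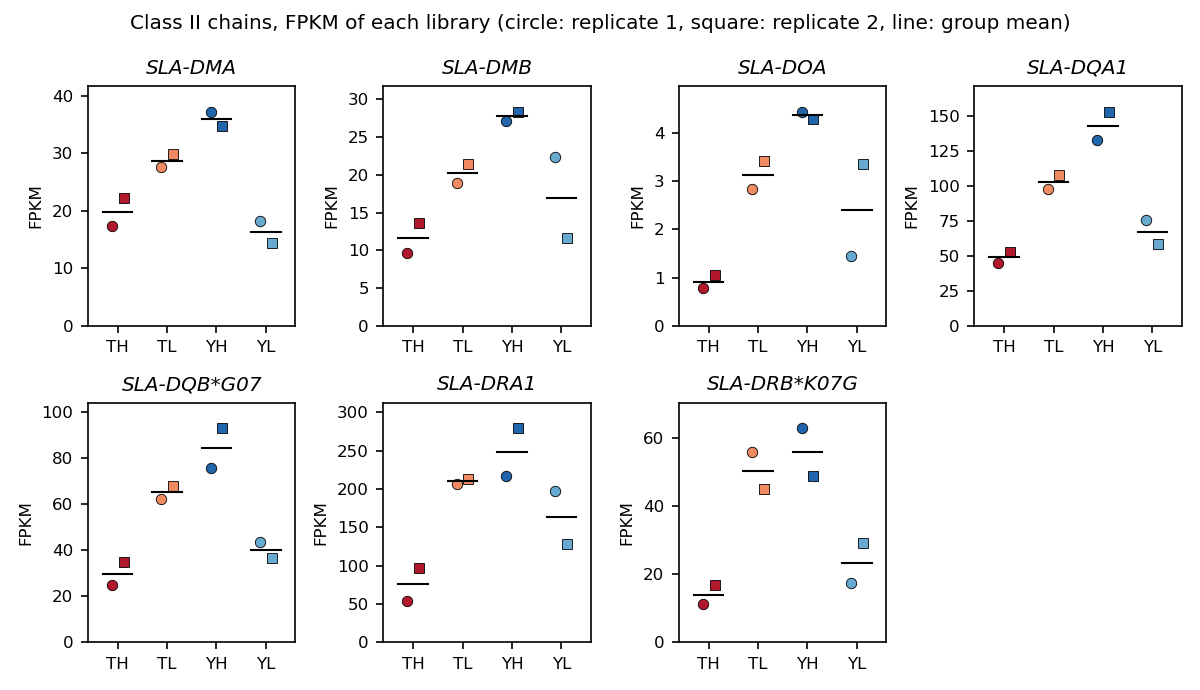
FPKM of the 7 class II chain rows with a mean of at least 1 FPKM in each library, by group, with circles for replicate 1, squares for replicate 2 and a line at the group mean. In all 7 panels both TH libraries lie below both YH libraries, and both YH libraries lie above both YL libraries.

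Counted over the 7 tested class II chains, all 7 were lower in TH than in YH without overlap, all 7 lower in TH than in TL, and all 7 higher in YH than in YL. With the FPKM sum without mitochondrial genes as scale the last of these counts was 5. These 3 comparisons share libraries and are not independent. The 7 rows were measured in the same pools, so they are not independent of each other either. Among all genes, 26.6% were lower in TH than in YH without overlap, 24.2% lower in TH than in TL, and 21.4% higher in YH than in YL. In TL vs. YL, where no library is shared with TH vs. YH, 5 of the 7 were higher in TL without overlap and 0 were lower, beside 23.5% and 17.2% of all genes. The class II chains had a median log2 fold change of -1.49 in TH vs. YH, -1.11 in TH vs. TL, 1.05 in YH vs. YL and 0.62 in TL vs. YL. Without YL2 the last pair of medians were 0.93 and 0.57, and without TH1 the first pair were -1.33 and -0.94. The lowland log2 fold change of SLA-DMB was 0.30 ± 0.33 and turned to -0.14 ± 0.26 without YL2, and that of SLA-DRA1 went from 0.40 ± 0.36 to 0.09 ± 0.39 (limma adjusted p without YL2 = 0.932 and 0.98).

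At an unadjusted p under 0.01 with a log2 fold change over 1, 6 of the 7 class II chains were lower in TH than in YH, beside 1.74% of all genes, and 5 were lower in TH than in TL, beside 1.11%. Higher in YH than in YL by the same rule were 4, SLA-DMA, SLA-DQA1, SLA-DQB*G07 and SLA-DRB*K07G, beside 0.487% of all genes. Without YL2 this count was 2, and without TH1 the counts for TH vs. YH and TH vs. TL were 3 and 1. By this rule SLA-5 was the only member to pass in TL vs. YL, beside 0.439% of all genes lower in TL, and between the breeds, beside 0.487% lower in the Tibetan pigs. Between the altitudes, where 0.115% of all genes were lower in the highland by this rule, 0 of the 32 rows met it. None of these differences passed the adjusted threshold.

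The interaction compares the altitude difference of the Tibetan pigs with that of the Yorkshire pigs, TH minus TL against YH minus YL. It was negative for all 7 class II chains, with a median log2 difference of -2.14, or -1.73 without TH1 and -1.95 without YL2. By the unadjusted rule 6 of the 7 passed, beside 1.78% of all genes in this direction, but rows measured in the same pools are not separate results. The largest in size was that of SLA-DRB*K07G, -3.04 ± 0.46 (limma adjusted p = 0.198, from 0.0207 to 0.742 over the alternative settings). It was -2.17 ± 0.35 for SLA-DQB*G07, -2.14 ± 0.51 for SLA-DRA1 and -2.14 ± 0.33 for SLA-DQA1 (limma adjusted p = 0.201, 0.296 and 0.198). For SLA-5 the interaction was -0.72 ± 0.33 (adjusted p = 0.485).

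The order of groups was also counted over the members. By group means TH was the lowest and YH the highest of the 4 groups in 17 of the 32 rows, where 13.3% of all genes had this order. The 17 rows included 6 of 7 class II chains, 2 of 6 class I heavy chains and 0 of the 3 tested rows of PSMB8, PSME1 and PSME2. In 13 of the 32, both TH libraries lay below both TL libraries while both YH libraries lay above both YL libraries, and 7.04% of all genes did so. Without TH1 the first count was 15, beside 9.23% of all genes, and the second 14, beside 8.73%. Without YL2 they were 14 and 13, beside 13.2% and 12.1%.

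Alpha and beta chains of 1 molecule were compared within libraries. The ratio of SLA-DQB*G07 to SLA-DQA1 was 0.550 and 0.654 in the TH libraries, 0.638 and 0.628 in those of TL, 0.569 and 0.605 for YH, and 0.574 and 0.624 for YL, a range of 0.550 to 0.654 while the level of SLA-DQA1 ranged from 45.3 to 153 FPKM. The ratio of SLA-DRB*K07G to SLA-DRA1 was less even, at 0.208 and 0.172 in the TH libraries, 0.270 and 0.211 in those of TL, 0.290 and 0.175 for YH, and 0.0887 and 0.228 for YL, and was lowest in YL1. In the table the DR beta chain has the further rows SLA-DRB2 to SLA-DRB5, close copies among which reads may be split.

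**Figure D3:**
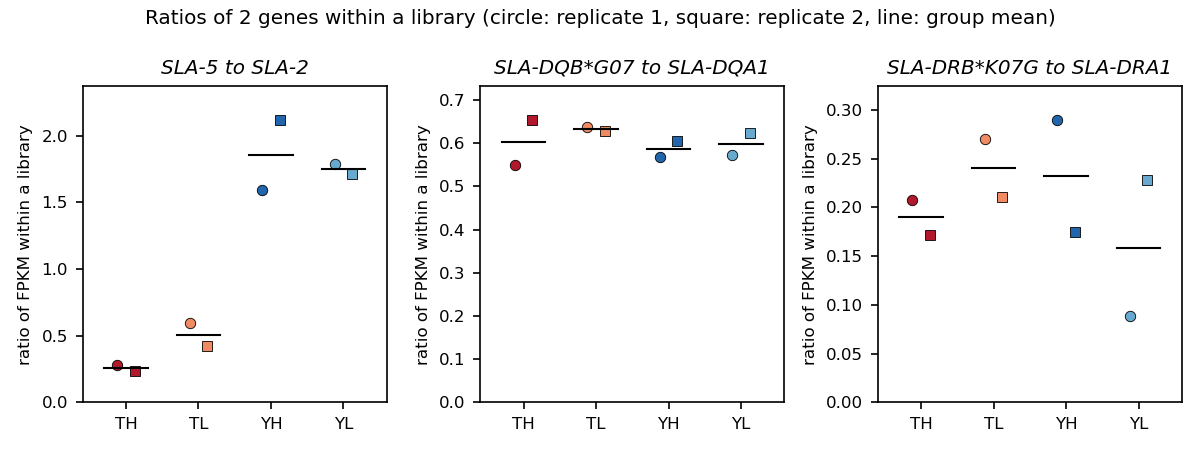
Ratios of the FPKM of 2 genes within each library, by group, with circles for replicate 1, squares for replicate 2 and a line at the group mean. The ratio of SLA-5 to SLA-2 is at most 0.592 in the Tibetan and at least 1.60 in the Yorkshire libraries, and that of the DQ chains is nearly level. TMP-SLA-2 is not counted with SLA-2.

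Of the 6 class II rows described as pseudogenes in the table, SLA-DRB2 had the highest level. It was at 7.75 and 10.1 FPKM in the TH libraries, 15.4 and 11.9 in those of TL, 18.6 and 17.0 for YH, and 11.3 and 13.6 for YL, with TH below YH (log2 fold change -0.93 ± 0.23, limma adjusted p = 0.163). SLA-DRB4 was at 0.176 to 2.94 FPKM. SLA-DQB2 was listed at 0 in both TH libraries and in YH1, at 2.01 and 1.20 FPKM in TL, at 0.722 in YH2, and at 1.49 and 1.22 in YL. These values rest on 0 to 3 reads per library, so no fold change is given. SLA-DRB3, SLA-DRB5 and SLA-DOB2 reached at most 1.09 FPKM. All class II rows lie between positions 29036552 and 29549278 of chromosome 7, in 513 kb.

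The regulators of class II were followed next. CIITA, the coactivator that switches class II genes on, was at 0.672 to 2.84 FPKM, lowest in TH1 and highest in YH1, with -0.71 ± 0.28 in TH vs. YH (limma adjusted p = 0.287) and -0.46 ± 0.29 without TH1. RFX5 and RFXAP, subunits of the factor that binds class II promoters, were at 1.17 to 3.24 and 5.76 to 9.63 FPKM. In TH vs. YH their log2 fold changes were -0.69 ± 0.23 and -0.37 ± 0.20 (adjusted p = 0.241 and 0.396), and that of RFX5 was -0.43 ± 0.20 without TH1. CTSS, the protease that cuts the invariant chain, was at 18.6 to 32.4 FPKM, and TH was -0.62 ± 0.26 from YH (adjusted p = 0.302).

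IFI30, a thiol reductase of the endosome, was at 7.78 and 9.60 FPKM in the TH libraries, 6.83 and 8.82 in those of TL, 12.1 and 12.2 for YH, and 11.8 and 28.2 for YL. The highest value belonged to YL2, the library with kidney genes. In TL vs. YL the log2 fold change was -1.14 ± 0.38, and -0.55 ± 0.25 without YL2 (limma adjusted p = 0.439 and 0.559). All 5 tested rows of class II regulation and processing lay lower in TH than in YH without overlap, where 26.6% of all genes did. In TL vs. YL, 3 of the 5 had a positive and 2 a negative log2 fold change. CTSL was at 0.302 to 1.52 FPKM, highest in YL2, and was not tested.

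CD1D presents lipids, FCGRT carries immunoglobulin G and albumin, and LNPEP trims peptides for cross-presentation. The row named CD1D, whose identifier carries the symbol CD1B in the gene table used here, was at 0.172 to 1.87 FPKM, lowest in TH1 and highest in YH2. FCGRT was at 63.5 to 118 FPKM, with its highest value in YL2, and LNPEP at 0.684 to 2.70 FPKM, with its lowest in TH1. No comparison of these rows passed the test.

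**Figure D4:**
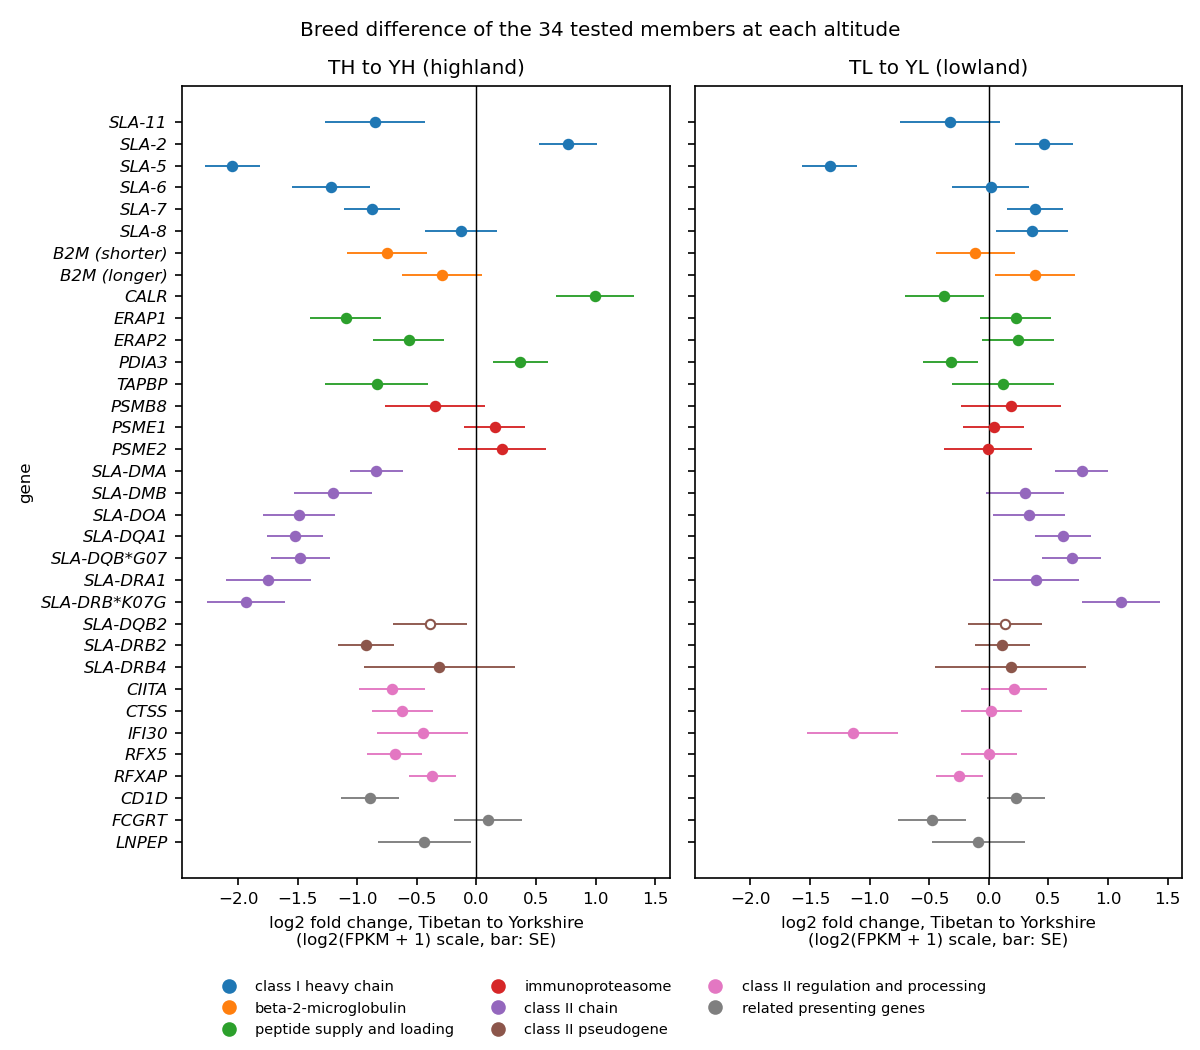
Log2 fold changes with SE on the log2(FPKM + 1) scale for the 34 tested rows, Tibetan relative to Yorkshire, in the highland (TH vs. YH) and in the lowland (TL vs. YL), coloured by role. The 7 class II chains are all negative in the highland and all positive in the lowland (SLA-DMB turns to -0.14 ± 0.26 without YL2), SLA-5 is negative in both, and SLA-DQB2, drawn open, rests on 0 to 3 reads per library and was set aside with CD1D.

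Over the members as a whole, 26 of the 32 rows had a negative log2 fold change in TH vs. YH and 10 in TL vs. YL. In the highland 21 lay lower in TH without overlap, beside 26.6% of all genes, and 3 higher, beside 25.2%. In the lowland 6 lay lower in TL, beside 17.2% of all genes, and 9 higher, beside 23.5%, shares of the members near those of all genes. Between the breeds over both altitudes, SLA-5 and IFI30 were the 2 rows lower in all 4 Tibetan libraries, where 3.16% of all genes were. The median over the 32 rows was -0.70 in TH vs. YH, or -0.52 without TH1. In TL vs. YL it was 0.15, and without YL2 15 of the 32 rows were above 0 and 17 below. Scaling by median ratios moved the median of the 11913 genes from -0.03 to -0.13 in TH vs. YH, and the 7 class II chains and SLA-5 kept their signs in both breed comparisons under it.

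Other genes of the pathway, 38 rows from a list of proteasome, chaperone, translocon, lysosomal protease and T cell coreceptor genes, were set beside the members. Of the 35 tested, 0 were called by limma in any of the 7 comparisons, and 30 reached 1 FPKM in at least 1 library of each group. At an unadjusted p under 0.05 there were 6 of these 30 in TH vs. YH, 4 higher and 2 lower in TH, where 15.2% of all genes passed. The median log2 fold change of the 30 in TH vs. YH was 0.24, with 23 rows above 0 and 7 below. POMP, the proteasome maturation factor, had the highest mean, and CTSB, a lysosomal protease, reached 1291 FPKM in YL2 against 142 to 242 elsewhere.

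Interferon gamma induces both classes of presenting genes. Of the 13 tested rows of its axis, 0 were called by limma in TH vs. YH, and 12 reached 1 FPKM in at least 1 library of each group. In TH vs. YH, 11 of these 12 had a negative log2 fold change, with a median of -1.06, and 6 had an unadjusted p under 0.05, where 15.2% of all genes did. CXCL10, a chemokine, ranged from 3.17 in TH2 to 366 in YL1. IFNG itself was listed at 0 in both TH libraries and reached at most 0.614 FPKM elsewhere.

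Markers of cells that carry class II or meet it were summed beside it. The 4 DR and DQ chains gave 136 and 202 FPKM in the TH libraries, 423 and 434 in those of TL, 488 and 574 for YH, and 334 and 253 for YL. T and NK cell markers, 12 genes, gave 9.45 and 8.92 FPKM in the TH libraries, 12.8 and 17.5 in those of TL, 40.6 and 44.5 for YH, and 18.8 and 18.0 for YL, so that TH was lowest and YH highest here too. Of these markers 9 passed the filter on low values, 2 of them (CD3D and CD3G) through YH alone, so no count over the tested markers is given. Over all 12, tested or not, 12 lay lower in TH than in YH without overlap, as did 22.9% of all 18975 rows. T cells of pigs can carry class II molecules themselves.

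The sums of the other marker lists are given by group. Dendritic cell markers, 6 genes, summed to 3.45 to 5.63 FPKM in TH, 4.93 to 6.14 in TL, 6.63 to 9.33 in YH and 2.57 to 3.57 in YL. Macrophage markers, 10 genes, summed to 34.6 to 36.1 in TH, 25.3 to 29.9 in TL, 33.3 to 53.0 in YH and 30.1 to 31.7 in YL, with CD163 at most 0.0777 FPKM. Of these 10, 3 lay lower in TH than in YH without overlap and 0 higher, beside 22.9% and 21.5% of all 18975 rows. CSF1R was at 1.44 and 2.74 FPKM in TH against 5.48 and 6.06 in YH, while AIF1, with the highest mean of the list, overlapped. B cell markers, 7 genes, summed to 2.61 to 4.56 over the 8 libraries, with PAX5 at most 0.0778 FPKM. Endothelial markers, 9 genes, summed to 223 to 228 in TH, 205 to 219 in TL, 193 to 205 in YH and 119.6 to 143 in YL. PECAM1, EGFL7 and CLDN5 carry most of this sum. Of the 9 markers, 4 lay lower in TH than in YH without overlap and 2 higher, beside 26.6% and 25.2% of all genes. VWF was at 1.07 and 22.8 FPKM in TH against 24.4 and 25.9 in YH. Per unit of T and NK markers, the DR and DQ chains were at 14.4 and 22.6 in the TH libraries, 33.0 and 24.8 in those of TL, 12.0 and 12.9 for YH, and 17.8 and 14.0 for YL. Per unit of macrophage markers they were at 3.93 and 5.60 in the TH libraries, 14.1 and 17.2 in those of TL, 14.6 and 10.8 for YH, and 10.5 and 8.40 for YL, and per unit of endothelial markers at 0.609 and 0.886 in the TH libraries, 2.06 and 1.98 in those of TL, 2.53 and 2.80 for YH, and 2.34 and 2.11 for YL. Of the 8 libraries, TH was thus lowest per unit of the summed macrophage and endothelial markers, and YH was lowest per unit of the summed T and NK markers. These orders hold for the sums and were not taken per single marker. The part of these cell types in the class II pattern was not tested.

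**Figure D5:**
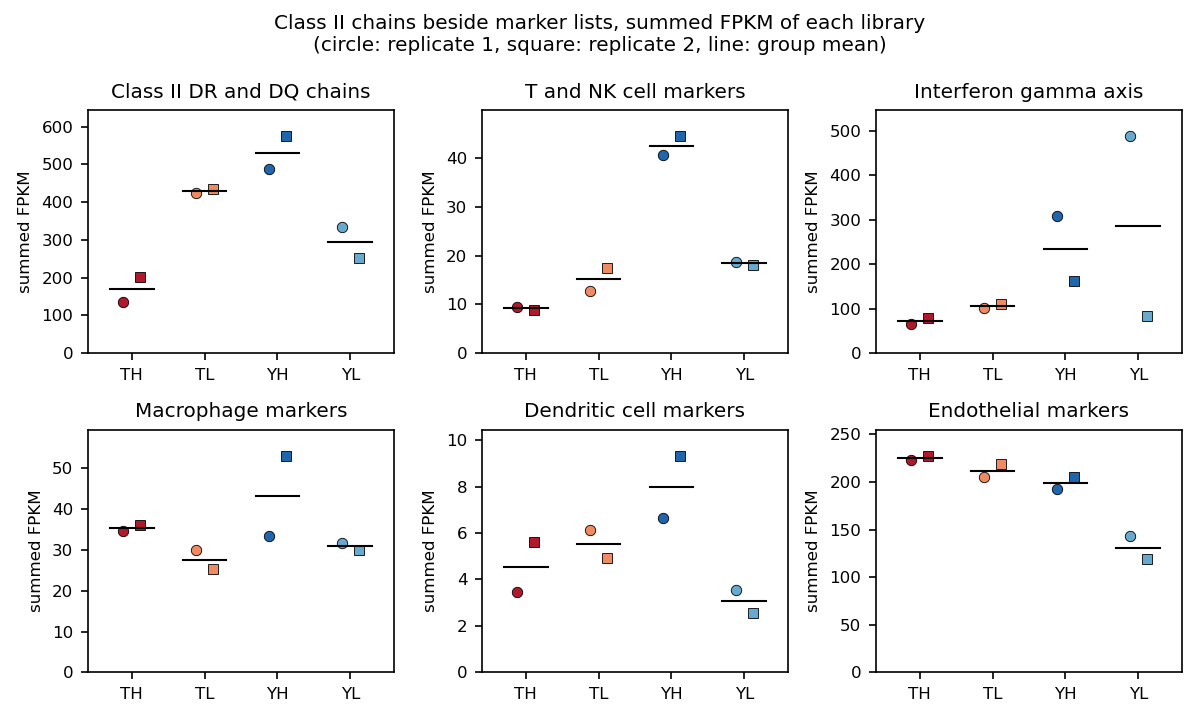
Summed FPKM of the 4 class II DR and DQ chains and of 5 marker or pathway lists in each library, by group, with circles for replicate 1, squares for replicate 2 and a line at the group mean. Class II and the T and NK markers are lowest in TH and highest in YH, whereas the endothelial sum, carried mostly by PECAM1, EGFL7 and CLDN5, is highest in TH and lowest in YL.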

How the data were processed

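Total RNA of hearts, pooled in equal amounts from 4 pigs per library, was sequenced in 8 libraries. The authors aligned reads to Sscrofa10.2 (TopHat2 2.0.9 and Bowtie 0.12.5, per the labels) and deposited FPKM for 18975 genes. A second deposited value is a signal, reads on genes multiplied by 1 factor per library. Divided by the smallest step of its library, 99.8% of its low values are whole within 0.02, and reads and depth were taken from it. The group means and ratios that the authors deposited beside them, 8 columns, and 4 tables of single groups were not used.

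FPKM were tested as log2(FPKM + 1) with limma 3.58.1 in R 4.3.3, with a trend on the mean, 1 term per group, and Benjamini-Hochberg adjustment over 11913 genes in each of 7 comparisons. The prior had 2.83 degrees of freedom and the residuals 4. Sums and ratios used scipy 1.17.1, numpy 2.4.6 and pandas 2.3.3 in Python 3.11.15, with matplotlib 3.10.9 for drawing. Starts of genes were counted from 1.

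Members and lists were chosen with earlier results of these data known. Values of all libraries were printed for class I heavy chains, B2M and class II chains with a mean of at least 1 FPKM, and for other members that were called, that passed the unadjusted rule (p under 0.01, log2 fold change over 1 in size), or that ranged over 2-fold at a mean of at least 10 FPKM. From other lists, called genes and at most the 4 of highest mean were named, besides CD3D and CD3G (named for how they passed the filter) and genes named for a low level (IFNG, CD163 and PAX5), which were chosen after their values were seen. Marker lists were for T and NK, dendritic, B, endothelial and kidney cells, macrophages and cardiomyocytes. The description of both YL libraries names the table of TL, in conflict with their title, which was followed. No sequences were read, since no genome of this build was used here. PCR duplicates cannot be told from separate molecules, so reads bound the counting error only.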

Additional observations from a re-analysis of the deposited data

Results flagged for a closer look

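In 13 of the 32 rows that reached 1 FPKM in each group, both TH libraries lay below both TL libraries and both YH libraries lay above both YL libraries, so that the altitude difference had opposite directions in the breeds. Among all genes that reached 1 FPKM in each group, 7.04% had this order. Without TH1 the count was 14, beside 8.73%, and without YL2 it was 13, beside 12.1%. The difference itself was tested as the limma interaction, and with all 8 libraries 0 of the 13 reached an adjusted p under 0.05. Without YL1 the adjusted p was 0.0144 for SLA-DQA1, 0.0207 for SLA-DRB*K07G, 0.0235 for SLA-DQB*G07, 0.0284 for SLA-DMA, 0.043 for SLA-DRA1 and 0.0467 for SLA-DOA, with YL2, the library with kidney genes, then alone in its group. Over all the settings run, the highest adjusted p of these 6 rows ranged from 0.742 to 1. The class II chains and their pseudogene SLA-DRB2 had interactions of -3.04 (SLA-DRB*K07G), -2.17 (SLA-DQB*G07), -2.14 (SLA-DRA1), -2.14 (SLA-DQA1), -1.82 (SLA-DOA), -1.62 (SLA-DMA), -1.51 (SLA-DMB), -1.04 (SLA-DRB2). Among the class I genes these were -1.26 (SLA-7) and -1.23 (SLA-6). For the others they were -1.32 (ERAP1), -0.92 (CIITA), -0.69 (RFX5, and -0.43 ± 0.25 without TH1). With all 8 libraries their adjusted p ranged from 0.198 to 0.502. CD1D had the same order, with a value of -1.12, but nothing is read from it, because it passed the filter on low values only through TL and YH, the groups in which this order needs it to be high. Both altitude comparisons rest on 2 libraries a group. The range over other settings was compiled in full for only 6 of the 13 rows. For SLA-DOA it was compiled without the filter at a mean of 10 FPKM, which this row does not reach.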

How the results depend on the processing

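The count of members called was 0 in each of the 7 comparisons and stayed 0 in 132 repeats under other settings and moved in 12. Of these, 1 member, SLA-5, was called between the breeds with a mean of at least 10 FPKM (4270 genes), with median-ratio scaling, and without YL replicate 1, the counts without each library ranging from 0 to 1 for the breeds and staying at 0 elsewhere. At an adjusted p under 0.05 the count was 1 in TH vs. YH and 1 between the breeds. With an unadjusted p under 0.01 it was 9 in TH vs. YH (1.74% of the 10476 genes at 1 FPKM in each group, in the same direction), 1 in TL vs. YL (0.439%), 6 in TH vs. TL (1.11%, SLA-DQB2 among them), 4 in YH vs. YL (0.487%), 1 between the breeds (0.487%), 1 between the altitudes (SLA-DQB2, at 0 to 3 reads, beside 0.115%) and 7 for the interaction (1.78%). The replicate numbers did not pair the libraries: deviations of same-numbered libraries correlated at -0.08 to 0.12 between groups, and with a replicate block the count of members called was 0 in each comparison. The settings were a pseudocount of 0.1, no filter, scaling to the FPKM sum without mitochondrial genes, no trend, only the libraries compared, the TMP rows added, and, chosen after seeing the data, scaled reads (13774 genes with at least 10 reads in at least 2 libraries) and only the 34 rows selected by name. With 1 library left out, the remaining library of its group was assumed to vary like the other groups. Of the planned settings, the count models (edgeR and DESeq2) were not run, since the deposited values are not raw counts. For SLA-5 between the breeds, the adjusted p under scaled reads was 0.0612. No member's log2 fold change that passed the unadjusted rule changed sign in the 29 results repeated. The median of the class I heavy chains in YH vs. YL was 0.09 and ranged from -0.07 to 0.37 without single libraries. Depth limits the rows at under 1 FPKM, such as PSMB9 with 5 to 24 reads per library.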
